A study of Mus musculus with 10 samples.

Results

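The genes described here encode the protein subunits of the cytosolic ribosome. They were chosen by symbol from 21887 protein-coding genes of the mm10 assembly: symbols of Rpl or Rps followed by a digit, with Rplp0, Rplp1, Rplp2 and Rpsa, and without pseudogenes and the ribosomal S6 kinases. This gave 89 genes, of which 43 encode large-subunit proteins, 31 small-subunit proteins (with Rpsa) and 3 the ribosomal stalk. The other 12 are paralogs, retrogenes or genes that share the symbol only, such as Rps19bp1, which encodes a binding protein of RPS19. The genes were short, with a median span of 3180 bp.

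Ribosomal protein genes are transcribed at high rates in all growing cells, and in embryonic stem (ES) cells they are among the most active RNA polymerase II genes. Their promoters are compact and rich in CpG, and lack a canonical TATA box in most cases. Transcription starts at a run of pyrimidines, which makes the mRNA responsive to growth signals. TET2 is an enzyme that oxidises methylated cytosine in DNA.

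The libraries are TET2 ChIP-seq from mouse ES cells, cultured with serum, LIF, the GSK-3 inhibitor CHIR99021 and the MEK inhibitor PD0325901 and crosslinked with DSG and formaldehyde. A polyclonal rabbit antibody raised to an N-terminal piece of TET2 was applied to wild-type cells (Tet2fl/fl, no tag) and to knockout cells (Tet2-/-, no tag). Anti-FLAG M2 affinity gel was used on cells whose endogenous TET2 carries a 2x-Flag tag (FLAG-TET2, called tagged here) and on untagged parental cells, both Tet2fl/fl. Each of the 4 groups had 2 libraries with 1 peak list each. The wild-type and tagged lists, which have the epitope, are the target lists, and the knockout and parental lists, which lack it, are the control lists. Whether replicates came from separate cultures, and how many clones a line represents, is not in the labels, so p-values measure only the spread between these libraries, and peak lists hold no expression from which the cell type could be checked. The lists held between 2259 peaks (knockout replicate 1) and 63578 (tagged replicate 1), from an unknown read depth.

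A peak was given to a gene whose span it overlapped by at least 1 bp, or else to the nearest gene within 10 kb. With the FLAG resin nearly every ribosomal protein gene had a peak, whether or not the cells carried the tag. In tagged replicates 1 and 2, 85 and 82 of the 89 genes had a peak, against 69.6% and 50.8% of all protein-coding genes. In parental replicates 1 and 2, where there is no FLAG epitope, 84 and 72 had one, against 59.2% and 27.6% of all genes. For the 77 core subunit genes the counts were 77 and 76 in tagged lists and 77 and 68 in parental cells. All 4 resin lists had a peak at 72 of the 89 genes (80.9%), against 26.4% of all genes. No gene of the 89 had a peak in all 8 lists, against 2.76%.

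The TET2 antibody reached fewer of them. In wild-type replicates 1 and 2, 75 and 51 of the 89 genes had a peak, against 63.7% and 45.2% of all genes. In knockout replicate 1 a single gene did (1.12%, against 8.16% of all genes). In knockout replicate 2 there were 31 (34.8%), beside 31.7% of all genes and 18.5% of genes of at most 10 kb, the class to which most of these short genes belong. The single gene of knockout replicate 1 was Rpl10l, an intronless paralog of Rpl10 known for its use in the testis, and it was also the only one with a peak in both knockout lists, against 8.16% of all genes.

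**Figure D1:**
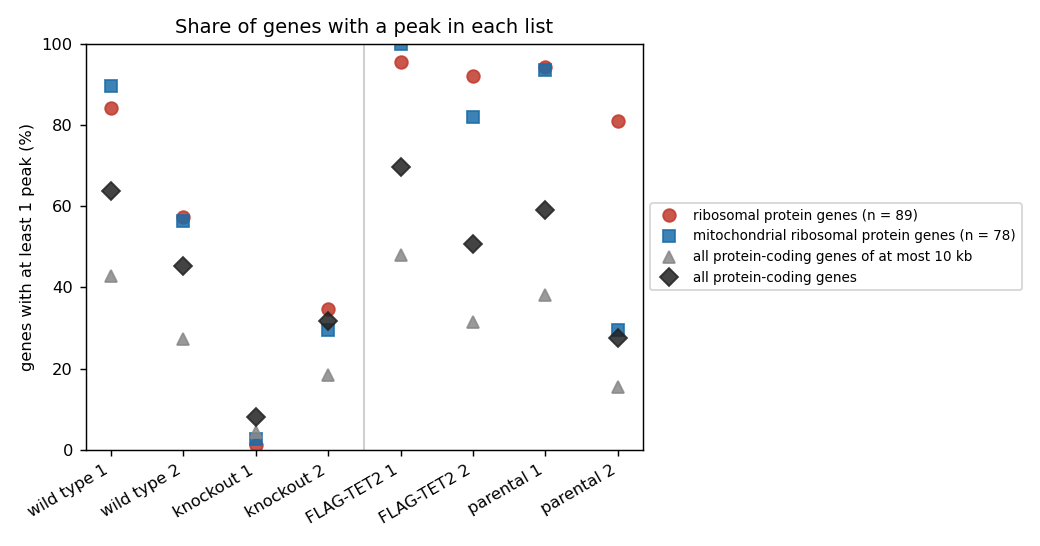
Share of genes with at least 1 peak (y axis, percent) in each of the 8 lists (x axis), for the 89 ribosomal protein genes, 78 mitochondrial ribosomal protein genes, all protein-coding genes of at most 10 kb and all protein-coding genes; each point is 1 list. In parental replicate 2 the ribosomal protein genes stand at 80.9% and the other 3 groups between 15.5% and 29.5%.

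The lists differed in length, so 2 control lists of similar length were set side by side. Knockout replicate 2 held 11696 peaks and parental replicate 2 held 10122. The former had 36 peaks at 31 ribosomal protein genes, and the latter 128 peaks at 72. Peaks at these genes made up 0.308% of the knockout list and 1.26% of the parental list. Across all 8 lists this share was 0.397% and 0.377% in wild type, 0.0443% and 0.308% in knockout, 0.470% and 0.712% in tagged lists and 0.665% and 1.26% in parental replicates 1 and 2. All 4 FLAG-resin lists were above all 4 TET2-antibody lists, and both parental lists had a larger share than the tagged list of the same number. At genes of at most 10 kb the share was 14.4% and 15.2% in wild type and 16.7% and 15.8% in knockout. There it was 11.6% and 13.9% in tagged and 13.1% and 15.4% in parental lists. The reagents overlapped at short genes, and the parental lists were above the tagged ones there too.

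Over both reagents, a mean of 82.3% ± 17.3 (SD, n = 4) of the ribosomal protein genes were hit in the target lists, and 52.8% ± 42.9 (SD, n = 4) in the control lists. The difference of 29.5 percentage points is within the spread of the control lists, whose values ran from 1.12% to 94.4% and overlapped the target values. It was 12.3 points without knockout replicate 1. Between same-numbered lists it was 83.1 and 22.5 points with the antibody and 1.12 and 11.2 points with the resin. The same 4 differences over all genes were 55.6, 13.4, 10.4 and 23.2 points.

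Target and control peaks were also counted together at each gene. Of the 89 genes, 49 (55.1%) had a peak in all 4 target lists, against 37.0% of all genes, and 75 (84.3%) had one in at least 2 control lists, against 41.7%. The count of 75 fell to 29 without parental replicate 1 and to 31 without parental replicate 2. None of the 89 had peaks in all 4 target lists while lacking control peaks, which was rare over all genes as well (1.66%). With the TET2 antibody alone, 25 genes (28.1%) were hit in each wild-type list and free of knockout peaks, against 20.2% of all genes. With the resin alone, 0 genes were hit in each tagged list and free of parental peaks, against 4.19%. Between the control groups, 44 genes (49.4%) had a peak in both parental lists and in neither knockout list, against 14.7% of all genes, and 0 genes showed the opposite, against 1.65%.

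The number of peaks per gene was compared by a two-sided exact permutation test on log2(peaks + 1), with labels exchanged within each reagent (36 arrangements) and Benjamini-Hochberg adjustment over 16471 genes with a peak. The smallest p this design allows is 0.0556, so no gene could pass. In this exact test 0 genes passed with adjustment and 0 at an unadjusted 0.05. The mean of log2(peaks + 1) was higher in target lists at 81 of the 86 ribosomal protein genes tested and lower at 3 (Rpl6, Rpl8 and Rps2). This sign can differ from that of the summed peaks, which at Rpl6 were 5 in target and 5 in control lists. The share of all genes with a higher mean was not counted, so 81 of 86 cannot be called particular to ribosomal protein genes. The median log2 difference was 0.540, beside 0.542 over all genes tested. The smallest p was reached by 2 genes, Rps21 and Rps3a1 (2.33%, against 11.3% of all genes tested). More peaks in each wild-type list than in either knockout list were found at 32 genes (36%, against 27.1% of all genes). More peaks in each tagged list than in either parental list were found at 9 (10.1%, against 13.5%), and the opposite at 0 (against 0.187%).

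**Figure D2:**
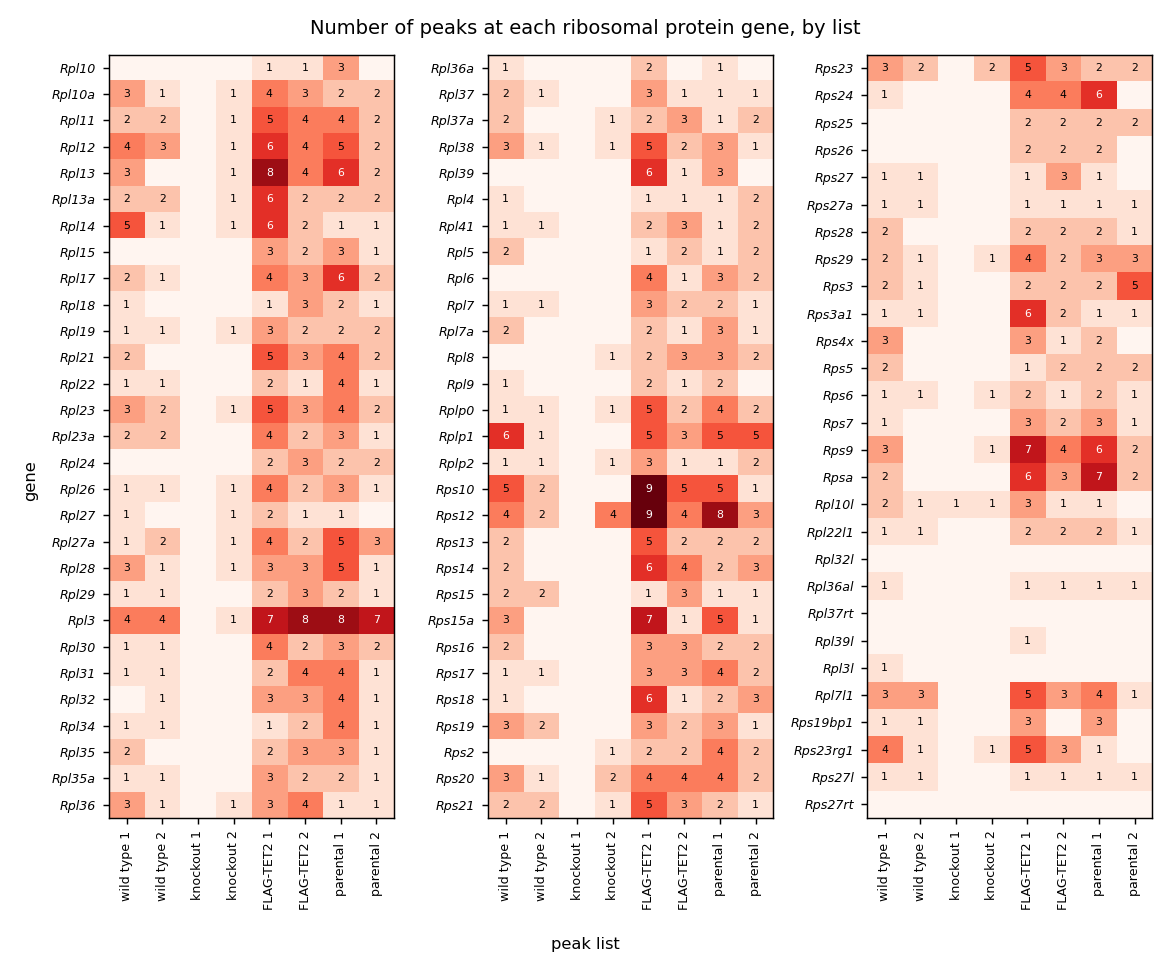
Number of peaks (colour and figure in each cell, blank for 0) at 86 of the 89 ribosomal protein genes (rows, 3 not shown; large subunit first, then the stalk, the small subunit and the paralogs) in the 8 lists (columns). The knockout replicate 1 column holds 1 peak, at Rpl10l, while the parental columns are filled for nearly all core subunits.

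Coverage was counted by role. In both parental lists 38 of the 43 large-subunit genes (88.4%), 27 of the 31 small-subunit genes (87.1%) and all 3 stalk genes had a peak, against 27.5% of all genes. The 12 paralogs and others had 4 (33.3%). Peaks in all 4 target lists were found at 25 large-subunit (58.1%), 16 small-subunit (51.6%) and 3 stalk genes, against 37.0% of all genes. They were found at 5 of the 12 others (41.7%), near the share of all genes. Rpl32l, Rpl37rt and Rps27rt had no peak in any of the 8 lists, against 24.7% of all genes, and each of the 3 belongs to the paralogs and retrogenes.

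Among the core subunits 9 genes had no peak in parental replicate 2, named here after their values were seen: Rpl9, Rpl10, Rpl27, Rpl36a, Rpl39, Rps4x, Rps24, Rps26 and Rps27. They include all 4 X-linked core genes (Rpl10, Rpl36a, Rpl39 and Rps4x), while 68 of the 73 autosomal ones had a peak there. In wild-type replicates 1 and 2 the X-linked genes with a peak numbered 2 and 0, in tagged replicates 4 and 3, and in parental replicates 4 and 0. The X chromosome was sparse in every list. In parental replicate 2 a peak was found at 3.62% of all X-linked genes and 28.7% of the others, and in tagged replicate 1 at 35.5% and 71.2%. The part of this chromosome-wide gap in the X-linked ribosomal genes was not tested.

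Taken over all positions, the peaks at ribosomal protein genes ranked below the middle of each list. For each peak the lists give the peak caller's −log10 q, and its rank within a list is given here as a percentile, with 50 as the list's middle. The median percentile of peaks at ribosomal protein genes was 31.5 and 29.9 in wild type, 22.6 in knockout replicate 2, 41.5 and 39.3 in tagged lists and 46.8 and 25.5 in parental replicates. At all genes of at most 10 kb it lay between 36.4 and 49.3, and parental replicate 1 was the only one of these 7 lists in which the ribosomal genes were above it (46.8 against 44.3). Peaks within 500 bp of a start ranked higher than those in the gene body or downstream in both tagged and both parental lists and in wild-type replicate 1. Their median percentile at ribosomal protein genes was 68.2 and 50.8 in tagged and 75.4 and 31.8 in parental replicates, against 58.6, 41.7, 45.7 and 30.8 at short genes. With the antibody it was 44.2 and 32.1 in wild type and 28.6 in knockout replicate 2, against 52.8, 43.3 and 46.2. Downstream peaks at ribosomal protein genes stood at 25.1 and 32.1 in wild type and 11.9 in knockout replicate 2. The median authors' fold enrichment at ribosomal protein genes was 5.46 and 5.39 in wild type, 6.14 and 5.67 in tagged lists and 6.57 and 5.73 in parental lists. The medians of the whole lists were higher, at 6.61, 6.22, 6.92, 6.34, 7.02 and 7.33.

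Among the 2259 leading peaks of each list, a number set by the shortest list, 1 or 2 ribosomal protein genes had a peak, at most 2.25% of them. The shares were 6.25% to 8.16% over all genes and 2.84% to 4.35% over genes of at most 10 kb. In all 4 FLAG-resin lists the ribosomal protein gene was Rpl11. Deeper in the lists the 2 parental lists stood above the others. The 10122 leading peaks of 7 lists were taken, a length chosen after seeing the data. They reached 61 ribosomal protein genes (68.5%) in parental replicate 1 and 72 (80.9%) in parental replicate 2. The tagged lists reached 27 and 37 (30.3% and 41.6%), the wild-type lists 11 and 18 (12.4% and 20.2%), and knockout replicate 2 reached 23 (25.8%). All genes gave 24.3% to 28.3% at this length. With knockout replicate 1 entered whole, at its 2259 peaks, target lists then stood at -18 percentage points relative to control lists, which turns the direction of the comparison over whole lists. With 2259 peaks in all 8 lists the difference was 0.281 points.

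**Figure D3:**
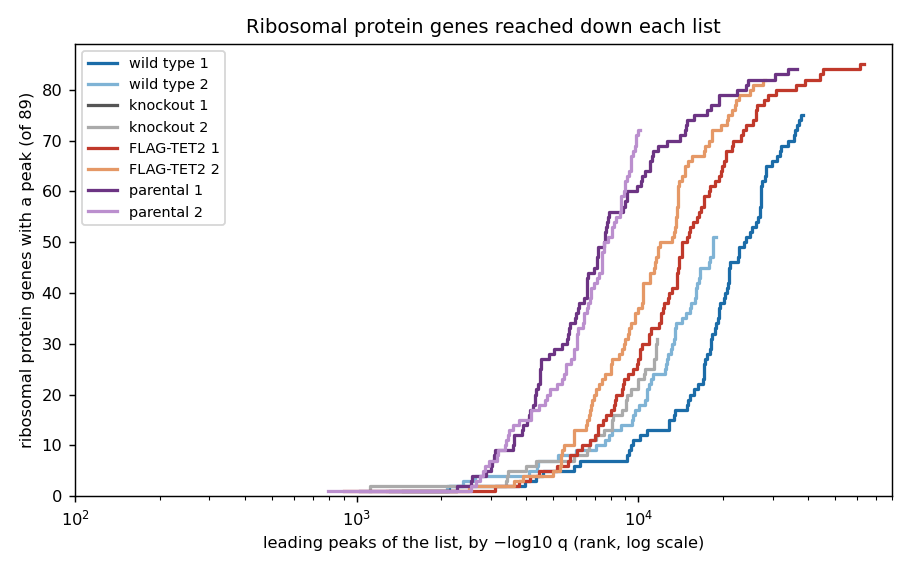
Number of ribosomal protein genes, of 89, with a peak (y axis) among the leading peaks of each list by −log10 q (x axis, rank on a log scale); each line is 1 list and ends at the list's length. Both parental lines rise first, reaching 61 and 72 genes at rank 10122, and the knockout replicate 1 line stays at 1 gene.

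Peaks at these genes were wider than those at short genes in each resin list and narrower in both wild-type lists and knockout replicate 2. Their median width was 310 and 290 bp in tagged lists and 339 and 242 bp in parental replicates, against 219 to 292 bp at genes of at most 10 kb and 237, 235, 200 and 211 bp in the whole lists. With the TET2 antibody it was 274 and 220 bp in wild type and 223 bp in knockout replicate 2, against 302, 245 and 241 bp at short genes. The single peak in knockout replicate 1 was 437 bp wide. The widths of the reagents overlapped, since wild-type replicate 1 was above parental replicate 2.

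RefSeq's promoter table for GRCm38.p6, which is mm10, has a start and strand for 69 of the 89 genes. Its windows run from 250 bases before to 50 after the start. The 4 small-subunit promoters shown are of genes named by the rule given under processing. Both reagents had a start peak at each, as at many other genes, so the places of the summits can be compared. The windows are chr3:86142619-86142918 for Rps3a1 (minus strand), chr7:24884342-24884641 for Rps19, chr10:80292181-80292480 for Rps15 and chr13:90922872-90923171 for Rps23 (plus strand). Each is printed 5′ to 3′ on the gene's strand, with the start base and the motif matches named after them in capitals.
Rps3a1: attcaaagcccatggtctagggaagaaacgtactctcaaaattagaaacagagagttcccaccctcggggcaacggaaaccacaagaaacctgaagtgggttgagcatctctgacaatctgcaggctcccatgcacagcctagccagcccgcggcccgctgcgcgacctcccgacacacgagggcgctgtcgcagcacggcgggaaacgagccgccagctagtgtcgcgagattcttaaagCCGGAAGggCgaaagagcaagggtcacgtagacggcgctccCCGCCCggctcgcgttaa
Rps19: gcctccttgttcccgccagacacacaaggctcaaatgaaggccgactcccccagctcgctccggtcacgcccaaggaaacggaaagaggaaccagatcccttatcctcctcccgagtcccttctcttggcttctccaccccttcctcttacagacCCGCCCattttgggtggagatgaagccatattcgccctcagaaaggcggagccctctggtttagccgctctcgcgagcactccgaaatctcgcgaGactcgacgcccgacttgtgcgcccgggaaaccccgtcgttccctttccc
Rps15: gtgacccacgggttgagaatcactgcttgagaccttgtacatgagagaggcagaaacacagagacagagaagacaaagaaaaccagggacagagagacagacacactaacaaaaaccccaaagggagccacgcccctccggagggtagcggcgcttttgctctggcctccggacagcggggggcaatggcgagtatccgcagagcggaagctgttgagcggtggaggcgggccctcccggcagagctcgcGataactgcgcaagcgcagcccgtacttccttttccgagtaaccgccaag
Rps23: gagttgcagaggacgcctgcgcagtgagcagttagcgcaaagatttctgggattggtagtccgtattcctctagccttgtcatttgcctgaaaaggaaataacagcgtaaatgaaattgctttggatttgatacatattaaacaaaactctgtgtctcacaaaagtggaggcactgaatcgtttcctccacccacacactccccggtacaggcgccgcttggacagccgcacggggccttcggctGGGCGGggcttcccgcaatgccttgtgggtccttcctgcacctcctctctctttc

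The motifs searched on both strands were CCGGAAG, the core bound by ETS factors, GGGCGG, the GC box of SP factors, CCATCTT, the YY1 core, and TATAAA, the TATA box. Rps3a1 has the ETS core from position -9 and a GC box on the other strand from position 33, where 1 is the start base. Rps19 and Rps23 have a GC box from -95 (other strand) and -5, and Rps15 has none of the 4. Of the 69 ribosomal promoters, 25 (36.2%) held the ETS core, against 11.9% of 17492 protein-coding promoters of the same length. The GC box was in 58.0% against 46.3%, the YY1 core in 13% against 6.37% and the TATA box in 10.1% against 13.3%. CTTTC or CTTTT within 10 bases of the start was found in 26.1% against 4.89%. The median number of CpG in the window was 21 against 13. A match describes letters only.

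A peak lay over the printed kind of window at 49 and 33 of the 69 genes in wild type, 1 and 16 in knockout, 63 and 51 in tagged lists and 56 and 31 in parental replicates 1 and 2. Over all 17492 promoters the shares were 44.6% and 27.5% in wild type, 3.32% and 15.5% in knockout, 46.8% and 28.2% in tagged and 30.8% and 8.34% in parental lists, against 71.0%, 47.8%, 1.45%, 23.2%, 91.3%, 73.9%, 81.2% and 44.9% of the ribosomal promoters in the same order. Within 1 kb of a start, the summit of the strongest peak was at the start base with the TET2 antibody and inside the gene with the resin. The median summit was at -13 bp (54 genes) and -37 bp (33 genes) from the start in wild type and at 17.5 bp (18 genes) in knockout replicate 2, where negative values lie upstream. In tagged replicates it was at 204 and 286 bp, and in parental replicates at 325 and 316 bp. The lists of the 2 reagents did not overlap in this median, and knockout replicate 1 had a single gene, at 158 bp. At all genes of at most 10 kb the medians were -5.5 and -9 bp in wild type, 79 and 99.5 bp in tagged lists and 165 and 168 bp in parental lists, so the resin's summits lay further into ribosomal protein genes than into short genes at large.

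The shift was also seen gene by gene. Of 29 ribosomal protein genes with a start peak in both wild-type replicate 2 and parental replicate 2, all 29 had the parental summit further downstream. Among short genes 71.5% did, and the median shift was 272 bp at ribosomal protein genes and 135 bp at short genes. Of 52 ribosomal protein genes shared by wild-type replicate 1 and parental replicate 1, 44 had the parental summit further downstream (84.6%), against 71.0% of short genes. Between tagged and wild type it was 40 of 53 and 28 of 31 (75.5% and 90.3%, against 58.4% and 62.5% of short genes). The parental summit was downstream of the tagged one in 39 of 63 and 31 of 51 genes (61.9% and 60.8%), near the 60.6% and 56.1% of short genes. Between the knockout and parental lists of replicate 2 it was 15 of 15, against 65.3% of short genes. At Rps3a1 the summits were at -15 and -11 bp in wild type, -2 and 384 bp in tagged lists and 743 and 439 bp in parental replicates 1 and 2. At Rps15 they were at -29 and -72 bp, -43 and -96 bp, and 598 and 528 bp. There the tagged summits sat with the wild-type ones, upstream of the start. At Rps23 they were at 116 and -72 bp in wild type, 94 and 316 bp in tagged lists and 347 and 316 bp in parental lists, and at Rps19 all 6 lay between -108 and 57 bp.

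**Figure D4:**
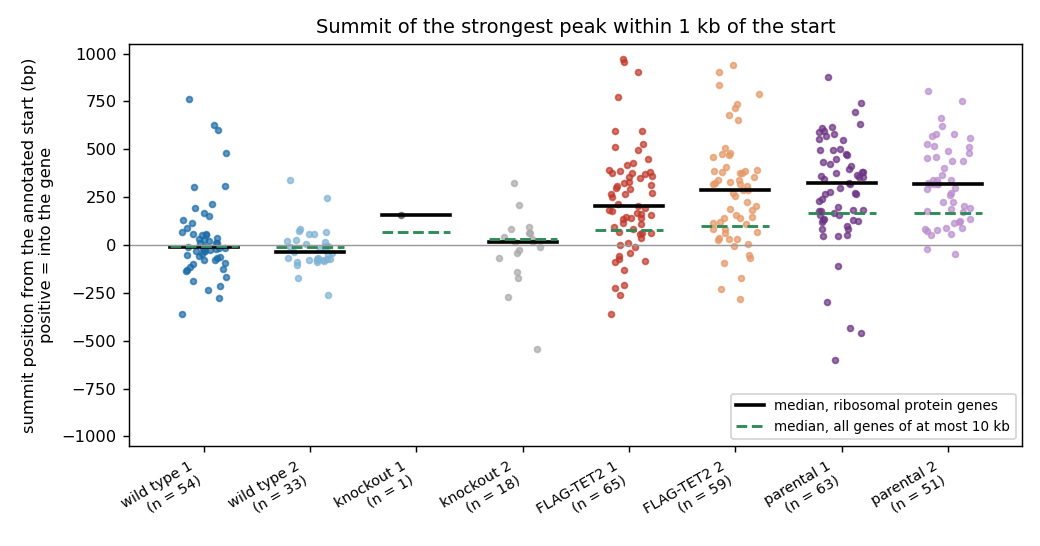
Position of the summit of the strongest peak within 1 kb of the annotated start (y axis, bp, positive into the gene) at each ribosomal protein gene (points) in each list (x axis, with the number of genes); black lines are medians over these genes and dashed green lines medians over all genes of at most 10 kb. The wild-type medians are at -13 and -37 bp, and those of the 4 FLAG-resin lists between 204 and 325 bp.

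Summits inside the gene, over 500 bp from a start, were more frequent in the resin lists. They made up 34.4% and 31.4% of the peaks at ribosomal protein genes in tagged lists and 39.0% and 38.1% in parental replicates. In wild type the share was 13.5% and 4.08%, and in knockout replicate 2 none of 28 peaks lay there. At all genes of at most 10 kb the share was 18% to 32% in every list. Peaks beyond the gene's far end made up 30.6% and 22.4% in wild type, against 14.4% and 11.6% at short genes, and 32.1% in knockout replicate 2. In tagged lists they made up 26.9% and 12.1%, and in parental lists 18.6% and 1.19%, so the reagents overlapped in this share. Over the 4 target lists, a mean of 73.4% of peaks lay within 1 kb of a start or of either end of the span. The 4 values were 69.9%, 88.7%, 60.2% and 74.6%, beside 69.3%, 73.1%, 62.1% and 70.4% at short genes, and the control lists other than knockout replicate 1 had 83.3%, 70.0% and 82.0%.

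**Figure D5:**
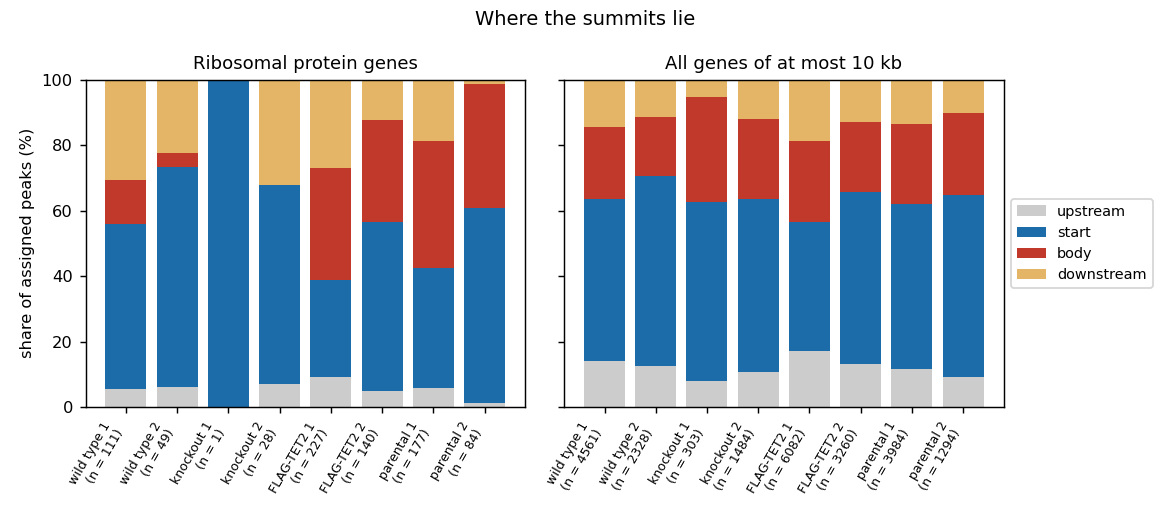
Share of assigned peaks (y axis, percent) whose summit lies upstream of the gene, within 500 bp of a start, in the rest of the gene body, or downstream, for ribosomal protein genes with a known start (left) and all genes of at most 10 kb (right), by list with its number of peaks. The gene-body share at ribosomal protein genes is 31.4% to 39.0% in the 4 FLAG-resin lists and at most 13.5% in the TET2-antibody lists.

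Merging overlapping peaks across the 8 lists gave 317 regions at ribosomal protein genes of 79350 in all. Of these 317, 204 (64.4%) held a peak of at least 1 control list, against 50.7% of all regions and 57.1% of those at short genes. Regions with peaks in both tagged lists numbered 131, and 88.5% of them had a parental peak, against 59.6% of all such regions and 74.0% of those at short genes. Regions with peaks in both wild-type lists numbered 61, and 41.0% had a knockout peak, against 34.8% and 42.1%. The other 36 had no knockout peak, but 32 of them (88.9%) had a parental peak, against 39.3% of all such regions and 58.0% at short genes.

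Only 2 of the 317 regions (0.631%, against 5.70% of all regions) had a peak in all 4 target lists and in no control list. Without wild-type replicate 2 there were 9, without parental replicate 1 there were 7 and without tagged replicate 2 there were 4. One lay at chr17:46787996-46788561, 5.34 kb upstream of Rpl7l1, a paralog of Rpl7 with a role in ribosome assembly, where the authors' fold was 9.66 and 6.95 in the wild-type lists and 13.7 and 7.75 in the tagged lists. The other lay at chr7:24890213-24890712, 0.402 kb beyond the far end of Rps19, whose human counterpart is mutated in Diamond-Blackfan anaemia, where wild-type folds were 2.99 and 3.83 and tagged folds 5.90 and 5.29. Neither overlapped the span of its gene, and both genes also had peaks in both parental lists elsewhere.

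Among core genes with highly ranked target peaks, Rps20, Rps29, Rps3a1 and Rps15 also had control peaks in the same regions. A fold given for a region is the highest of a list's peaks in it. At Rps20 the region chr4:3834084-3836038, over an end of the gene, had authors' folds of 12.8 and 8.19 in wild type, 6.42 in knockout replicate 2, 16.2 and 8.82 in tagged lists and 18.9 and 9.76 in parental replicates 1 and 2. At Rps29 (chr12:69157205-69159355) the folds were 8.39 and 8.33 in wild type, 6.42 in knockout replicate 2, 9.12 and 7.58 in tagged lists and 12.9 and 10.1 in parental replicates. The start regions of Rps3a1 (chr3:86141407-86142832) and Rps15 (chr10:80292251-80293955), whose promoters are printed above, had no knockout peak. At Rps3a1 the wild-type folds were 10.8 and 8.22, the tagged folds 13.3 and 9.49 and the parental folds 9.56 and 7.20. At Rps15 they were 9.65 and 6.23, 11.2 and 8.15, and 9.85 and 5.83, so parental and target values overlapped at both genes.

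Rps10 had more peaks over the target than over the control lists, 21 against 6. It had 5 and 2 peaks in wild type, none in either knockout list, 9 and 5 in tagged lists and 5 and 1 in parental replicates 1 and 2. Its tagged and parental numbers met at 5. Its region at the start (chr17:27634215-27635482) had wild-type folds of 8.57 and 9.05, with 7.08 and 6.26 in tagged lists and 13 and 6.85 in parental lists. Rpl3, the core gene with the most peaks over the target lists, had 4 and 4 in wild type, 0 and 1 in knockout, 7 and 8 in tagged lists and 8 and 7 in parental lists, so the resin gave the same numbers with and without the tag in the reverse order of replicates.

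Rps23rg1, a retroposed copy of Rps23 with a span of 16779 bp, had no peak in parental replicate 2. Its start region (chr8:3567520-3568230) had wild-type folds of 15.0 and 9.48, with 13.2 and 6.68 in tagged lists, no knockout peak, and 3.71 in parental replicate 1 with none in replicate 2. A separate region just upstream (chr8:3567301-3567506) held a knockout replicate 2 peak with a fold of 5.67 and a wild-type replicate 1 peak with 4.01. The parental peak ranked at percentile 7.11 of its list, and the wild-type peaks at 96.6 and 88.9. Its parent gene Rps23 had a start region (chr13:90922974-90924577) with peaks in 7 lists, among them 11.1 and 6.97 in parental and 5.58 in knockout replicate 2. Another distribution was seen at a region 6.43 kb from Rpl11 (chr4:136059819-136060523), on its upstream side. It held the best-ranked ribosomal protein gene peak of each resin list, with folds of 40.7 and 21.5 in tagged lists and 42.9 and 28.3 in parental replicates, and it had no peak in the 4 TET2-antibody lists.

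Other genes of protein synthesis were counted from lists of the same pathway. In parental replicate 2 a peak was found at 27 of 37 translation factor genes (73.0%), 25 of 40 ribosome biogenesis genes (62.5%) and 23 of 78 mitochondrial ribosomal protein genes (29.5%), beside 27.6% of all genes and 15.5% of genes of at most 10 kb. In knockout replicate 2 the numbers were 16 of 37 (43.2%), 24 of 40 and 23 of 78 (29.5%), in the same order. In that list 31.7% of all genes and 18.5% of genes of at most 10 kb had a peak. The ribosome biogenesis number was thus near that of parental replicate 2 and the mitochondrial number equal to it, while the translation factor number was lower. In these gene lists, too, no gene had peaks in all 4 target lists and in no control list, against 1.66% of all genes. Mitochondrial ribosomal proteins serve the organelle's own ribosome, and in wild type 70 and 44 of their 78 genes had a peak (89.7% and 56.4%), near the 84.3% and 57.3% of the cytosolic genes. They stood apart in parental replicate 2, at 29.5% against 80.9%, but not in parental replicate 1, at 93.6% against 94.4%. Examples by rank of their strongest target peak were Mrps31, with 5 and 1 peaks in wild type and 3 and 1 in parental replicates, and Eif4a2, a translation initiation helicase, with 10 and 5 in wild type and 10 and 4 in parental lists.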

How the data were processed

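Of the 10 samples, 8 immunoprecipitations with a peak list were analysed, and the input and IgG libraries were left out. Tools named in the submitters' processing notes are MACS2, Bowtie2, DESeq2, Trimmomatic and DiffBind, on mm10, with versions and roles not given in the sources used here. Each deposited list holds the peaks of 1 library, with a score, a fold enrichment (a linear ratio) at the summit, −log10 p and −log10 q values, all the authors' own. The deposited peak names carry q10, rmChrM, rmDUP and IgG. Read depth was not given. Ribosomal protein genes have processed copies elsewhere in the genome, and whether these affected peaks over exons was not tested.

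Peaks on 21 chromosomes were kept, and between 2 and 34 of a list were left out. They were assigned to RefSeq gene spans (GRCm38.p6) with Python 3.11.15, pandas 2.3.3 and numpy 2.4.6. Roles of Rpl32l, Rpl37rt and Rps23rg1 were set after the gene table was seen. The symbol rule's exclusion of "ps" was read as the pseudogene suffix. Assignment, merging and the permutation test were tested on simulated data. Named genes were those with a common region, the 10 with the highest mean percentile of their strongest peak over the 4 target lists (among genes with a peak in each), the 2 with the most target peaks, those with peaks in all 8 lists (0) and those with none. Some items that this rule names are not reported here. Rpl11, Rpl10l and others given beside them were named after their values were seen, as were the positions relative to the start and the widths. The genes and lists were chosen with earlier results of these data known, so counts are given beside those of all genes with no test over the list. Groups came from the sample titles. The alternatives tried were peaks with a −log10 q from 5 upwards, other assignment distances, summits, shortened lists, peaks over 1 gene only, each library left out and a replicate block.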

Additional observations from a re-analysis of the deposited data

Results flagged for a closer look

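The share of a list's peaks that lay at ribosomal protein genes moved in opposite directions in the 2 arms, and the difference between the arms was not tested. With the TET2 antibody the share was higher in wild type than in the same-numbered knockout list by 0.353 and 0.0695 percentage points in replicates 1 and 2. With the FLAG resin it was lower in FLAG-TET2 than in the same-numbered parental list, by -0.195 and -0.553 percentage points. Over all genes of at most 10 kb the same 4 differences were -2.26, -0.524, -1.53 and -1.48 points, so only the antibody arm differed from them in sign. Short genes held 11.6% to 16.7% of a list and ribosomal protein genes 0.0443% to 1.26%, so the sizes in points cannot be compared. The knockout replicate 1 value rests on 1 peak.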

How the results depend on the processing

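The difference between target and control lists in genes with a peak (29.5 percentage points) was 0.281 with the 2259 leading peaks of each list and -18.0, a reversal, with the 10122 leading peaks of 7 lists and knockout replicate 1 whole at 2259 peaks, a setting chosen after seeing the data; the cause was not tested. Leaving out each library gave 12.3 to 43.4 points. Genes with a peak in all 4 target lists (49) numbered 0 and 6 under the same 2 shortenings, and 49 to 72 without single libraries. Genes in at least 2 control lists (75) numbered 2 with the 2259 leading peaks and 29 to 75 without single libraries. Genes in all target and no control lists (0) numbered 0 to 1 without single libraries, the 1 being Rps27 without parental replicate 1. Common regions (2) numbered 0 with spans alone or the 2259 leading peaks, 1 within 1 kb or with the 10122 leading peaks, and 2 to 9 without single libraries. The mean share of peaks near a start or gene end (73.4%) was 86.6% with spans alone, 88.9% within 1 kb, 50.0% with the 2259 leading peaks and 68.3% to 77.8% without single libraries. The permutation test called 0 genes in every setting run, with p limited by 2 libraries a group. Replicate numbers are shared between groups but the labels tie them to no culture or day, and deviations of same-numbered libraries correlated between -0.0776 and 0.198 over the 6 pairs of groups. With the replicate block the mean difference was again 29.5 points, and the exact test over 16 sign changes (smallest p 0.125) called 0 genes. The other counts have no blocked form. Unknown read depth limits every count of genes with a peak.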
